A study of Mus musculus with 12 samples.

Results

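The mouse *Trim5*-like cluster is a group of neighbouring genes on chromosome 7 that encode tripartite motif (TRIM) proteins. The 7 genes described here, *Trim34a*, *Trim5*, *Trim12a*, *Trim12c*, *Trim30b*, *Trim30a* and *Trim30d*, were found by symbol among the 39017 genes of the count table. They were chosen by their values in these same libraries, namely the difference between the groups and levels of single genes that did not follow the genotype, so their group difference and their values by mouse are given as a description, with no test. RNA sequencing of whole adrenals, trimmed of fat, covered 6 control (Ctrl) and 6 βCat-GOF female mice at 10 to 11 weeks of age. Ctrl mice had the genotype ASCre/+ and βCat-GOF mice the genotype ASCre/+::Ctnnb1fl(ex3)/+, all on a mixed sv129-C57Bl/6 background. Cre was expressed in both groups from the *Cyp11b2* locus, which is active in zona glomerulosa (zG) cells, where its recombination of the floxed *Ctnnb1* allele in βCat-GOF mice leaves a β-catenin protein that escapes degradation.

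TRIM proteins carry a RING domain that attaches ubiquitin, a B-box and a coiled coil through which they assemble. Many TRIM genes are induced by interferon, and primate TRIM5 binds the capsid of incoming retroviruses through its carboxy-terminal B30.2 domain and blocks infection. The mouse cluster arose by repeated duplication of such genes, and *Trim30a* is known as a brake on inflammatory signalling downstream of Toll-like receptors in macrophages. Many genes that interferon induces carry the interferon-stimulated response element (ISRE), a short DNA motif close to their start.

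In the GENCODE M21 annotation of GRCm38 (the assembly mm10) the 7 protein-coding genes lay within 263.4 kb, between bases 104244457 and 104507849 of chromosome 7. *Trim34a* (104244457 to 104262234) is on the plus strand. The other genes are on the minus strand, *Trim5* at 104263386 to 104288094, *Trim12a* at 104299894 to 104315466, *Trim12c* at 104338754 to 104353362, *Trim30b* at 104355382 to 104369884, *Trim30a* at 104409025 to 104465193 and *Trim30d* at 104470014 to 104507849. The longest coding sequence, summed over its annotated coding segments, had 497 codons in *Trim5*, *Trim12c* and *Trim30d*, 496 in *Trim30a*, 485 in *Trim34a*, 297 in *Trim12a* and 203 in *Trim30b*. *Trim12a* is known to lack the B30.2 domain.

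The start regions of the 6 genes with enough counts for a test are shown. They are alike among *Trim5*, *Trim12a* and *Trim12c* and between *Trim30a* and *Trim30d*, while the counts of these genes differ between mice. The wider windows used below were less alike between *Trim5* and *Trim30d* (72.2% of 241 aligned bases) and between *Trim34a* and *Trim5* (75.5% of 237). Sequences are from RefSeq (GRCm38.p6), which has a window for all 7 genes and a second start for *Trim30a*. Each line runs 5′ to 3′ along the gene and holds 100 bases before the start site and 30 bases from it on, and capitals mark the ISRE core. The stretches lie at chr7:104244357-104244486 on the plus strand for *Trim34a*, chr7:104288077-104288206 on the minus strand for *Trim5*, chr7:104315466-104315595 on the minus strand for *Trim12a*, chr7:104353320-104353449 on the minus strand for *Trim12c*, chr7:104465164-104465293 on the minus strand for *Trim30a* and chr7:104507820-104507949 on the minus strand for *Trim30d*.
Trim34a: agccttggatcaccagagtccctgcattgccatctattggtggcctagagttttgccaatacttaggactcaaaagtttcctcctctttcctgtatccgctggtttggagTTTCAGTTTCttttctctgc
Trim5: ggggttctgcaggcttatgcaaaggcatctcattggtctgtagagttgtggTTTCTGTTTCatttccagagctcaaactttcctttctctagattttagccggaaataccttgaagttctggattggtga
Trim12a: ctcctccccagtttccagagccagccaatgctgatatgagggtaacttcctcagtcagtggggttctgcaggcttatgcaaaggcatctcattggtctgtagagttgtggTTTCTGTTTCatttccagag
Trim12c: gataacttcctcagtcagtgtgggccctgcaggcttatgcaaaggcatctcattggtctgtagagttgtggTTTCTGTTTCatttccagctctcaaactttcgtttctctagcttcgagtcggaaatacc
Trim30a: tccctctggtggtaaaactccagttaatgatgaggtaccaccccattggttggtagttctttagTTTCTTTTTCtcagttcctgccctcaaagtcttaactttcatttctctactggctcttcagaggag
Trim30d: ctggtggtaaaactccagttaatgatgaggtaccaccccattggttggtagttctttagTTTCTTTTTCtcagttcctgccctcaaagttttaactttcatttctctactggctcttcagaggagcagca

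The ISRE core was searched for as GAAANNGAAA on both strands of windows from 250 bases before to 50 bases after each start site. It was present in 7 of the 8 windows of the 7 genes, in *Trim34a*, *Trim5*, *Trim12a*, *Trim12c*, *Trim30d* and both starts of *Trim30a*, and not in the window of *Trim30b*. Among all 32851 windows of this length in the table, 1131 (3.44%) held it. Each match was on the strand opposite to the gene, and is therefore printed above as its reverse complement. The middle bases were the same in *Trim5*, *Trim12a* and *Trim12c* (TTTCTGTTTC), while *Trim30a* and *Trim30d* shared TTTCTTTTTC and *Trim34a* had TTTCAGTTTC. A core of the interferon-γ-activated site, TTCNNNGAA, was found in 0 of the 8 windows and in 8.3% of all windows. A match is a description of these letters and no evidence that a factor was bound in these adrenals.

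**Figure D1:**
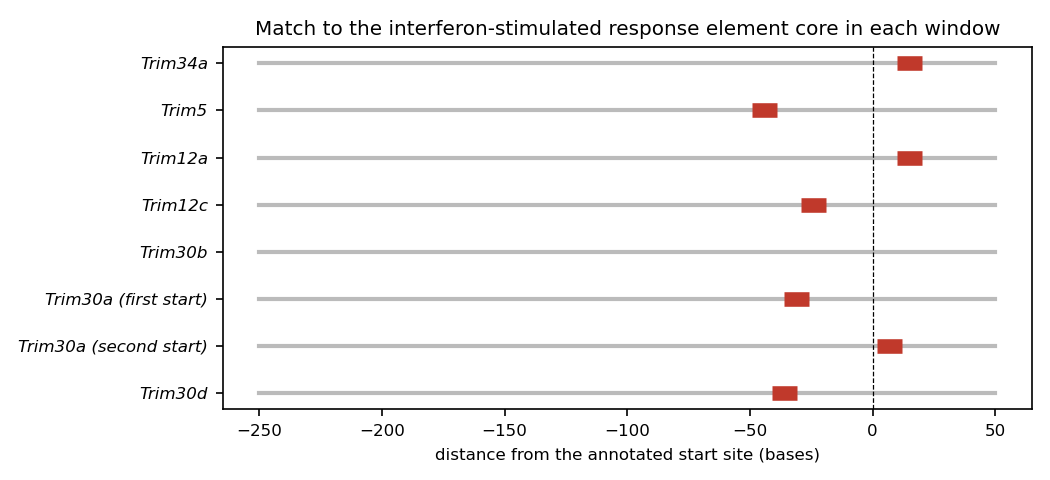
Position of the ISRE core (red) in the promoter windows of the 7 cluster genes, as distance in bases from the annotated start site (dashed line). The match begins between 49 bases before and 10 bases after the start in every window except that of *Trim30b*, which has none.

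The windows of *Trim5* and *Trim12a* were identical over all 241 bases that could be aligned, and those of *Trim12a* and *Trim12c* were identical at 247 of 260 bases (95%). The first window of *Trim30a* matched that of *Trim30d* at 276 of 295 bases (93.6%). The transcripts were similar as well. In the longest coding transcripts *Trim5* and *Trim12c* were 94.3% identical over 3710 aligned bases, *Trim12a* was 97% identical to *Trim5* over 952 bases, and *Trim30a* and *Trim30d* were 89.9% identical over 1721 bases.

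This similarity limits what the counts can separate, because the authors counted uniquely mapping reads. Of all 50-base stretches of the transcripts of *Trim34a*, 59.7% also occurred in another gene, mainly *Trim34b*. The share was 36.6% for *Trim5* and 33.7% for *Trim12c*, each sharing most with the other. It was 10.5% for *Trim12a*, 7.49% for *Trim30d*, 5.98% for *Trim30a* and 1.48% for *Trim30b*. Values of *Trim34a*, *Trim5* and *Trim12c* are therefore uncertain as levels of 1 gene alone. The share of *Trim12a* was taken over all 6 of its transcripts. Of its longest coding transcript (1486 bases), 64.1% aligned with *Trim5* at 97% identity. The share within that transcript alone was not counted, so values of *Trim12a* may be uncertain as well. In addition, 23.5% of the exon bases of *Trim34a* were overlapped by *Gm47248*, which has no row in the count table, and the sources used here do not say whether the counting used the strand.

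Totals per mouse were between 13484675 and 25625494 counts, and 3 counts were worth 0.117 to 0.222 CPM, which scales each library to 1 fixed total. *Ctnnb1*, the targeted gene, had 21625 ± 858 normalized counts in Ctrl and 21397 ± 1151 in βCat-GOF (mean ± SD of 6 mice each; log2 fold change -0.02, adjusted p = 0.91 by edgeR), and a gene total does not check the loss of 1 exon. Markers of zG and of the zona fasciculata were all detected and tested, 10 of 10 and 6 of 6. In 3 cases a label extends that of another mouse (Ctrl 1 and Ctrl 2, Ctrl 3 and Ctrl 4, βCat-GOF 1 and βCat-GOF 2), and the sources used here do not say what a shared stem means. The labels of all Ctrl mice begin with the number 1367 and those of βCat-GOF mice with 1369, except βCat-GOF 5 (1387), and whatever this number stands for cannot be told apart from the difference in genotype. Normalized counts are the counts divided by 1 size factor per library, and in RNA of a whole gland fewer cells of a type and less RNA per cell cannot be told apart.

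In control adrenals the cluster genes spanned from nearly silent to well expressed. Per kilobase of annotated exon, the level in Ctrl was highest for *Trim12c*, at 13.4 ± 0.979 CPM per kb, followed by *Trim30a* (10.9 ± 0.919), *Trim30d* (7.15 ± 1.66), *Trim34a* (5.48 ± 0.678), *Trim12a* (3.08 ± 0.994) and *Trim5* (1.79 ± 0.382; SD, n = 6 mice each). *Trim30b* was far below, at 0.0125 ± 0.00746 CPM per kb. Along this order the ranges of neighbours overlapped between mice for *Trim12c* (11.5 to 14.1) and *Trim30a* (9.76 to 11.8), for *Trim30a* and *Trim30d* (6.05 to 10.5), for *Trim30d* and *Trim34a* (4.78 to 6.67), for *Trim34a* and *Trim12a* (2.41 to 5.07), and for *Trim12a* and *Trim5* (1.45 to 2.54). In βCat-GOF adrenals the levels per kilobase were 10.1 ± 2.13 CPM for *Trim12c*, 4.57 ± 1.3 for *Trim30a*, 1.98 ± 0.843 for *Trim34a*, 1.18 ± 1.79 for *Trim30d*, 0.764 ± 1.18 for *Trim12a* and 0.475 ± 0.503 for *Trim5*. Lengths count every exon of every annotated isoform of a gene, which lowers the values of genes with many isoforms.

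Of the 7 genes, 6 passed the filter on low counts. *Trim30b*, the gene with the shortest coding sequence, had between 1 and 4 counts in the Ctrl mice and between 0 and 7 in the βCat-GOF mice, 27 in all, and was not tested.

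The group means of all 6 tested genes were lower in βCat-GOF than in Ctrl adrenals. Only *Trim30a* and *Trim34a*, 2 of the 6, passed the cut-offs (a fold change over 1.4, an adjusted p under 0.05 by edgeR's quasi-likelihood test with Benjamini-Hochberg adjustment, and a base mean over 100), whereas 0.869% of all 14953 genes tested passed them as lower. None of the 6 passed as higher, compared with 1.48% of all genes. By the adjusted p alone 3 of the 6 passed as lower, with *Trim5* as the third, against 1.52% of all genes. *Trim5* lay at the threshold, and its adjusted p by edgeR stayed under 0.05 in only 1 of the 12 fits without 1 mouse, the fit without βCat-GOF 1. In 5 of the 6 every βCat-GOF mouse was below every Ctrl mouse, against 1.16% of all genes. The median log2 fold change of the 6 was -1.69, and that of all genes tested was 0.0001. Since the genes were chosen by this contrast, nothing is read from these shares.

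**Figure D2:**
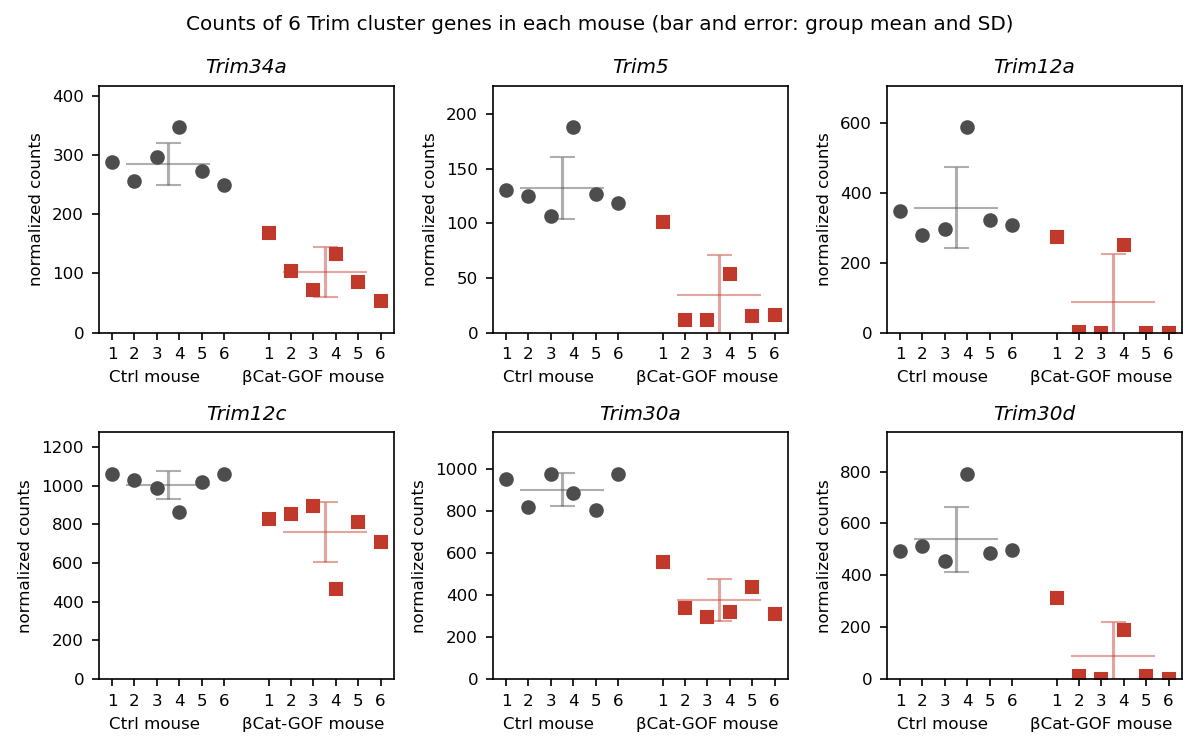
Normalized counts of the 6 tested cluster genes in each of 6 Ctrl mice (grey circles) and 6 βCat-GOF mice (red squares), with the group mean and SD, each axis starting at 0. *Trim30a* fell as a group, while *Trim12a* and *Trim30d* were at or near 0 in 4 βCat-GOF mice and well above 0 in βCat-GOF 1 and βCat-GOF 4.

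*Trim30a* and *Trim34a* were lower in every βCat-GOF mouse. *Trim30a* had 950, 815, 972, 882, 803 and 976 normalized counts in Ctrl 1 to Ctrl 6 and 555, 339, 294, 321, 435 and 310 in βCat-GOF 1 to βCat-GOF 6. The groups did not overlap, and the highest βCat-GOF mouse, βCat-GOF 1, lay well below the lowest control. The means were 900 ± 77.9 and 376 ± 101 (SD, n = 6 mice each), a fitted log2 fold change of -1.26 (SE 0.15).

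*Trim34a*, a relative of *Trim5*, had 288, 256, 297, 347, 273 and 250 normalized counts in the Ctrl mice and 169, 104, 71.6, 133, 85.8 and 52.8 in the βCat-GOF mice. The groups did not overlap, and the highest βCat-GOF values were those of βCat-GOF 1 and βCat-GOF 4, whereas for *Trim30a* they were those of βCat-GOF 1 and βCat-GOF 5. The means were 285 ± 35.1 and 103 ± 42.4 (SD, n = 6 mice each; log2 fold change -1.47, SE 0.24). Both genes passed the cut-offs in all 12 fits that left out 1 mouse, with log2 fold changes from -1.41 to -1.2 for *Trim30a* and from -1.68 to -1.35 for *Trim34a*.

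*Trim12a* showed the widest spread. It had 348, 278, 297, 587, 323 and 307 normalized counts in Ctrl 1 to Ctrl 6, and 274, 1.95, 0, 251, 0 and 0 in βCat-GOF 1 to βCat-GOF 6. The unnormalized counts of the βCat-GOF mice were 354, 2, 0, 159, 0 and 0. βCat-GOF 1 and βCat-GOF 4 were thus close to the lowest controls, βCat-GOF 2 had 2 counts, and βCat-GOF 3, βCat-GOF 5 and βCat-GOF 6 had none, where a count of 0 allows up to 2.68, 2.96 and 3.44 normalized counts (3 counts per library, counting error only). The level in βCat-GOF 1 was at least 102-fold higher than that in βCat-GOF 3. βCat-GOF 1 and βCat-GOF 2, whose labels share a stem, had 274 and 1.95. Ctrl 4 was the highest of all mice, at 1.91 times the median of the other controls. The means, 357 ± 115 in Ctrl and 87.8 ± 136 in βCat-GOF, describe few of these mice. The fitted log2 fold change was -2.02 with an SE of 1.04, which did not pass the cut-offs, and without βCat-GOF 1 it was -2.96, which did not pass either. The authors mapped reads to the mm10 reference, and the background of the mice was mixed, so a count of 0 says that no read mapped uniquely to the reference gene. Whether the mice carried different alleles of the cluster was not tested.

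*Trim30d* followed the same mice. Its normalized counts were 493, 512, 456, 792, 486 and 496 in the Ctrl mice and 312, 10.7, 0.895, 191, 11.8 and 1.15 in the βCat-GOF mice. βCat-GOF 3 and βCat-GOF 6 had 1 count each, βCat-GOF 2 and βCat-GOF 5 had 11 and 12, and Ctrl 4 was again the highest mouse. The groups did not overlap, with means of 539 ± 125 and 87.9 ± 132 (SD, n = 6 mice each; log2 fold change -2.6, SE 0.89). It did not pass the cut-offs with all mice. It passed without βCat-GOF 1, with a log2 fold change of -3.8, and without the 3 mice whose label repeats the stem of another, with -3.89.

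*Trim5*, the mouse gene that gives the cluster its name, shared its highest mice with *Trim12a* and *Trim30d*. It had 130, 125, 107, 188, 127 and 119 normalized counts in the Ctrl mice and 101, 11.7, 11.6, 53.8, 14.8 and 16.1 in the βCat-GOF mice. βCat-GOF 1 and βCat-GOF 4 were the highest mice of their group and Ctrl 4 the highest control, and in none of the 12 mice was the gene at 0. The means were 133 ± 28.3 and 34.9 ± 36.3 (SD, n = 6 mice each; log2 fold change -1.91, SE 0.5). Without βCat-GOF 1 the log2 fold change was -2.69. Its base mean of 83.8 was below the cut-off of 100.

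*Trim12c*, which lies between *Trim12a* and the *Trim30* genes, did not show this pattern. It had 1062, 1030, 988, 862, 1018 and 1059 normalized counts in the Ctrl mice and 827, 852, 893, 465, 812 and 711 in the βCat-GOF mice. It was well above 0 in every mouse, the groups overlapped, and Ctrl 4, the highest mouse for *Trim12a*, was here the lowest control, while βCat-GOF 4 was the lowest mouse of all. The means were 1003 ± 74.3 and 760 ± 157 (SD, n = 6 mice each; log2 fold change -0.41, SE 0.13), and the gene did not pass the cut-offs.

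**Figure D3:**
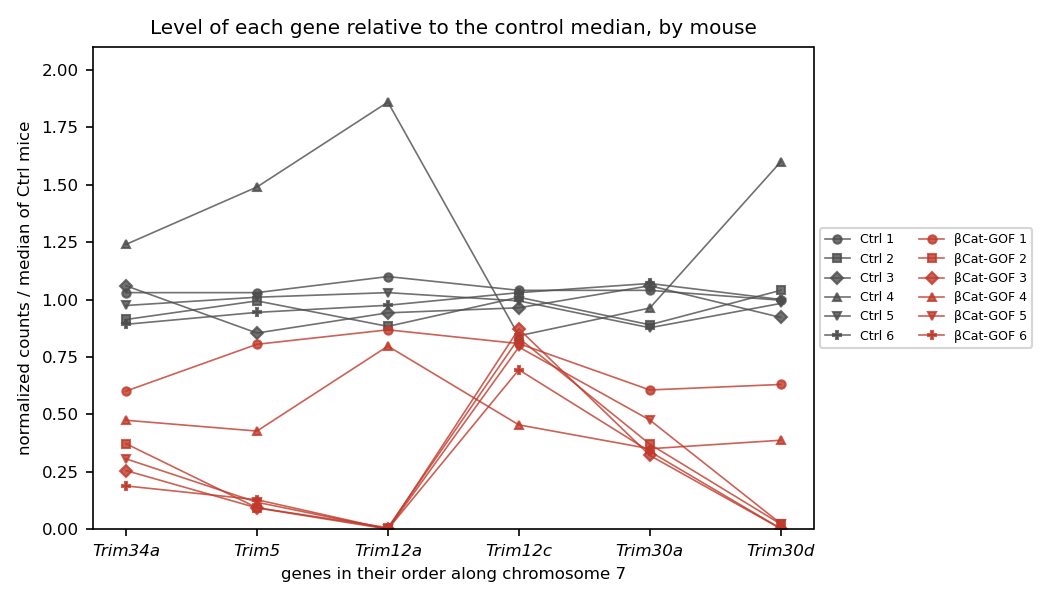
Normalized counts of each gene divided by the median of the 6 Ctrl mice, for each Ctrl mouse (grey) and βCat-GOF mouse (red), with genes in their order along chromosome 7 and 1 line per mouse. Ctrl 4 rises to 1.86 at *Trim12a* and 1.6 at *Trim30d*, while βCat-GOF 2, 3, 5 and 6 drop to or near 0 at *Trim12a* and *Trim30d* and lie well above it at *Trim12c*.

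Relative to the control median, βCat-GOF 1 had 0.868 of the level of *Trim12a*, 0.805 of *Trim5* and 0.63 of *Trim30d*. βCat-GOF 4 had 0.797, 0.427 and 0.387 of these levels. For *Trim12c* the same ratios were 0.808 and 0.454. All Ctrl mice have the labelled genotype ASCre/+, and the labels give no alleles of the cluster. Within this group Ctrl 4 had 1.86 times the control median for *Trim12a*, 1.6 times for *Trim30d* and 1.49 times for *Trim5*. For *Trim12c* it had 0.842 times the control median. Ctrl 3, whose label shares a stem with that of Ctrl 4, had 297 normalized counts of *Trim12a* against 587 in Ctrl 4.

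The spread between mice within a group was described by the SD of log2 CPM. Within the βCat-GOF group it was 3.56 for *Trim12a*, and 0 of the 14953 genes tested had a larger SD. It was 2.92 for *Trim30d*, with 5 genes above it, and 1.24 for *Trim5*, with 193 above it. The size of the SD of *Trim12a* and *Trim30d* depends on the prior count of 2. With it, a count of 0 stood at -3.36 log2 CPM for *Trim12a*, and a count of 1 at -2.82 or -2.7 for *Trim30d*. Other prior counts were not tried, and the ranks describe genes chosen by such values. Genes within 1 log2 CPM of the mean level of *Trim12a*, *Trim30d* and *Trim5* had a median SD of 0.44, 0.39 and 0.45 in the βCat-GOF group. *Trim34a* had an SD of 0.61, *Trim30a* of 0.37 and *Trim12c* of 0.36, beside medians of 0.33, 0.23 and 0.21 at their levels. Within the Ctrl group the SDs were closer to those of other genes, at 0.39 for *Trim12a*, 0.29 for *Trim30d* and 0.27 for *Trim5* beside medians of 0.35, 0.3 and 0.36.

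**Figure D4:**
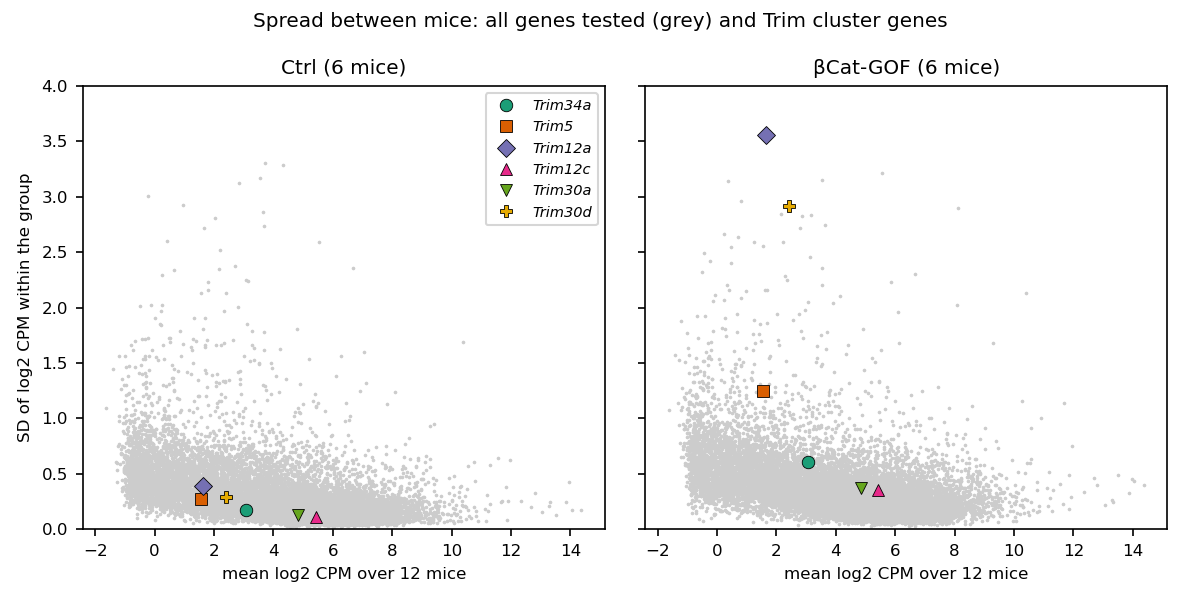
SD of log2 CPM between the 6 mice of a group against the mean log2 CPM over 12 mice, for all genes tested (grey dots) and the 6 tested cluster genes (symbols). In Ctrl the cluster genes lie among the others, and in βCat-GOF *Trim12a* (3.56) and *Trim30d* (2.92) lie at the top.

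As a description of likeness, the group means were subtracted from log2 CPM and Pearson's r was taken over the 12 mice, which share the high values of βCat-GOF 1 and βCat-GOF 4. The r with *Trim12a* was 0.95 for *Trim30d*, 0.95 for *Trim5*, 0.85 for *Trim34a* and 0.44 for *Trim30a*, whereas *Trim12c* gave -0.52. Within the 6 Ctrl mice alone it was 0.94 for *Trim30d* and for *Trim5* and -0.87 for *Trim12c*, carried largely by Ctrl 4. Of all genes tested, the 5 most like *Trim12a* were *Rps13-ps2* (0.96), *Trim30d*, *Trim5*, *2510002D24Rik* (0.94) and *Xpc* (0.91). *Rps13-ps2*, a processed pseudogene of a ribosomal protein gene on chromosome 7, 15.8 Mb from *Trim12a*, had 15, 15.8, 13, 30.5, 14.4 and 12.6 normalized counts in the Ctrl mice and 18.6, 0, 0, 7.91, 0 and 0 in the βCat-GOF mice. The same 4 βCat-GOF mice that had at most 2 counts of *Trim12a* had none of this pseudogene, and Ctrl 4 was again the highest. *2510002D24Rik* on chromosome 16 and *Xpc*, a DNA repair gene on chromosome 6, moved over a much narrower range, from 253 to 337 and from 614 to 833 normalized counts over all mice.

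The other genes of the cluster were barely expressed. *Trim6* and *Trim34b* had 11 and 12.6 normalized counts on average in Ctrl and 12.6 and 16.2 in βCat-GOF adrenals, and *Trim30c* and *Trim30e-ps1* had at most 5 counts in any mouse and were not tested. Within 1 Mb on either side of the 7 genes lay 135 further genes of the count table, many of them olfactory receptor genes, of which 8 passed the filter on low counts. None of the 8 passed the cut-offs by edgeR or by DESeq2, and 0 had an unadjusted p under 0.05 by edgeR. The 8 were *Trim6* and *Trim34b*, the adult β-globin genes *Hbb-bt* and *Hbb-bs*, *Fam160a2*, *Prkcdbp* and the pseudogenes *Dnajc19-ps* and *Gm5900*, and their median log2 fold change was 0.06. *Fam160a2* and *Prkcdbp*, the tested coding genes beyond *Trim30d*, had log2 fold changes of 0.08 (SE 0.12) and 0.26 (SE 0.15).

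Beyond the 7 genes, 61 further TRIM genes were in the table and 38 were tested. They include *Trim6*, *Trim34b*, *Trim30c* and *Trim30e-ps1* of the cluster, of which *Trim6* and *Trim34b* were tested. Of these, 1 passed the cut-offs as lower and 0 as higher, and 20 had a lower and 18 a higher mean in βCat-GOF adrenals (median log2 fold change 0.0). The gene that passed, *Trim14*, a protein of antiviral signalling, had 150 ± 39.5 normalized counts in Ctrl and 78.7 ± 22.3 in βCat-GOF (mean ± SD of 6 mice each; log2 fold change -0.93, SE 0.22, adjusted p = 0.033 by edgeR), with groups that overlapped. Its call was lost, leaving 0 genes, in 9 of the 12 fits without 1 mouse, namely Ctrl 2, 3, 5 or 6 or βCat-GOF 2, 3, 4, 5 or 6.

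Of 40 listed interferon-stimulated genes, all tested, 16 passed the cut-offs as lower in βCat-GOF adrenals and 24 did not pass, beside 0.869% of all genes tested. All 40 had a lower fitted value, with a median log2 fold change of -0.67. The 3 genes with the largest falls were Ifit genes, whose products bind viral RNA. *Ifit3* fell from 788 ± 359 to 217 ± 77.8 normalized counts (log2 fold change -1.86, SE 0.28, adjusted p = 0.0032), *Ifit3b* from 331 ± 116 to 94 ± 37.4 (-1.81, SE 0.27, adjusted p = 0.0032) and *Ifit1* from 827 ± 294 to 310 ± 62.1 (-1.42, SE 0.2, adjusted p = 0.0021; edgeR, SD, n = 6 mice each). The summed level of the 40 genes was between 1096 and 1655 CPM in the Ctrl mice and between 817 and 1013 CPM in the βCat-GOF mice. Ctrl 4, the highest mouse for *Trim12a*, had the lowest sum among controls (1096 CPM). In βCat-GOF 1 to βCat-GOF 6 the sums were 989, 1013, 929, 954, 932 and 817 CPM. The same mice had 274, 1.95, 0, 251, 0 and 0 normalized counts of *Trim12a*. The sums of βCat-GOF 1 and βCat-GOF 4 were thus above those of βCat-GOF 3, 5 and 6 and below that of βCat-GOF 2. Whether these sums and *Trim12a* are linked was not tested.

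Of the ligands, receptors and signalling genes of the interferon pathway, 17 of 25 were tested, 1 passed the cut-offs as lower and 0 as higher, and the median log2 fold change was -0.05. The gene that passed was *Irf7*, a transcription factor that amplifies the interferon response, with 710 ± 123 normalized counts in Ctrl and 448 ± 76.4 in βCat-GOF (mean ± SD of 6 mice each; log2 fold change -0.67, SE 0.14, adjusted p = 0.015 by edgeR). *Irf7* no longer passed without the 3 mice whose label repeats a stem (log2 fold change -0.5). *Ifna2*, *Ifna4* and *Ifne*, which encode interferons, were at 0 in all mice. Over both lists and the partners below, 17 genes passed with all mice, 11 without Ctrl 3 and 10 without βCat-GOF 6.

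Genes that work with TRIM5 proteins showed no called change. The list held cyclophilin A (*Ppia*), the capsid-binding factor *Cpsf6*, ubiquitin-conjugating enzymes, the kinase *Map3k7* with its TAB partners, and autophagy genes. Of 24 genes 23 were tested, 0 passed the cut-offs in either direction by edgeR, 1 had an unadjusted p under 0.05, and the median log2 fold change was 0.09.

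**Figure D5:**
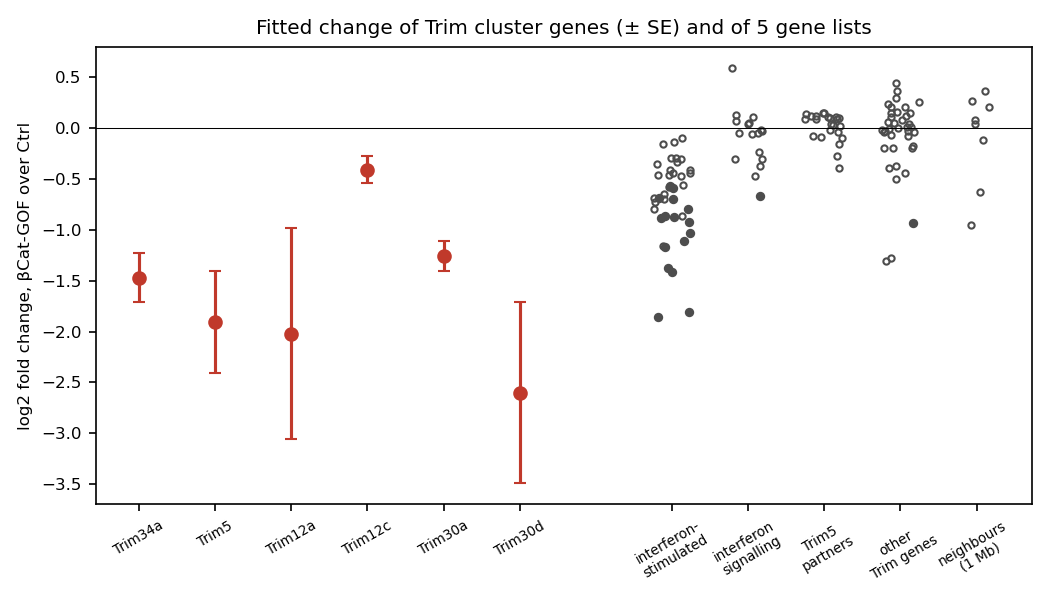
Fitted log2 fold change, βCat-GOF over Ctrl, of the 6 tested cluster genes (red, bars are SE) and of single genes of 5 lists (grey, filled where the gene passed the cut-offs). The points of interferon-stimulated genes lie below 0, with a median of -0.67, while the medians of the other 4 lists lie between -0.05 and 0.09.

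Marker genes of immune cells were measured beside these values, because macrophages and other leukocytes express TRIM and interferon-stimulated genes. Of 12 macrophage markers 1 (*Adgre1*) passed the cut-offs as lower, 10 had a lower fitted value (median log2 fold change -0.37), and their summed level was between 510 and 958 CPM in Ctrl and between 416 and 692 CPM in βCat-GOF mice. Of 6 markers of all leukocytes 1 (*Lcp1*) passed as lower and all 6 had a lower fitted value (median log2 fold change -0.54), with sums of 118 to 179 CPM in Ctrl and 86.5 to 121 CPM in βCat-GOF. Of 7 tested dendritic cell markers 1 (*Itgax*) passed as lower and 5 had a lower fitted value (median log2 fold change -0.93), with sums of 29.4 to 37.4 CPM and 20.8 to 29.6 CPM. These 3 markers were picked for naming because they passed. The dendritic cell markers *Flt3*, *Xcr1*, *Clec9a*, *Siglech* and *Cd209a* could not pass. Their group means were at most 30.7 normalized counts, below the base mean cut-off of 100. The dendritic cell median of -0.93 was the value of *Clec9a*, which had 17.9 normalized counts in Ctrl and 8.98 in βCat-GOF (SE 0.52). The tested markers of T and NK cells (5), B cells (4) and granulocytes (2) could not pass, because their means were below the base mean cut-off of 100. The highest was *Lck*, with 55.4 normalized counts in Ctrl and 59.4 in βCat-GOF. By the adjusted p of edgeR alone, 1 of the 5 T and NK cell markers was lower, *Cd4* (log2 fold change -1.35, adjusted p = 0.033), and 0 of the B cell and granulocyte markers. *Ly6g*, a defining granulocyte marker, was at 0 in all mice. The part of immune cells in the group difference of the cluster genes was not tested. The mouse-to-mouse pattern can be set beside the same sums. βCat-GOF 1 and βCat-GOF 4, the high mice for *Trim12a*, had leukocyte sums of 116 and 109 CPM, and the other 4 βCat-GOF mice had 107, 112, 121 and 86.5 CPM.

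Among cortical cell types, 4 of 10 zG markers passed as higher, with sums of 2980 to 3721 CPM in Ctrl and 3725 to 4889 CPM in βCat-GOF. Of the zona fasciculata markers 2 of 6 passed as higher (*Akr1b7* and *Mrap*), both with overlapping groups. Their list had sums of 16407 to 19584 CPM in Ctrl and 10179 to 31493 CPM in βCat-GOF, so βCat-GOF mice lay on both sides of the controls. Of all genes tested, 1.48% passed as higher. No tested marker of the X-zone (3), medulla (7), capsule and stroma (7), endothelium (7) or adipocytes (5) passed. Over all cell type lists 9 markers passed with all mice and 5 without Ctrl 4 or without Ctrl 6.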

How the data were processed

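Libraries of whole-adrenal mRNA from 6 Ctrl and 6 βCat-GOF mice were analysed. The authors trimmed adapters with cutadapt, aligned reads to mm10 with STAR, took those that mapped to a single place, and counted them on genes with featureCounts 1.4.4, and they deposited these counts for 39017 genes without normalization. They also deposited a normalized signal table, in which the counts of a library are divided by 1 factor, and its factors served as an alternative. The annotation release and strand setting are not given in the sources used here. Per-sample columns left unmapped numbered 0. Of the identifiers, 966 had no symbol and 37693 had a GENCODE M21 position.

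The counts were tested with edgeR 4.0.16 (R 4.3.3; TMM, filterByExpr, quasi-likelihood test, two-sided, Benjamini-Hochberg over 14953 genes). The authors' cut-offs of fold, adjusted p and base mean were kept; they used DESeq2. Normalized counts are counts over DESeq2 (1.42.0) median-of-ratios factors. The SE is the log2 fold change over the square root of F. Log2 CPM used a prior count of 2. Shared 50-base stretches and blastn 2.17.0 identity came from GENCODE transcripts. Scripts used Python 3.11.15 and matplotlib 3.10.9 and were tested on simulated data. The depth was 13484675 to 25625494 counts per mouse.

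The members, lists and tests were chosen with earlier results of these data known. Named genes are the 7 members, at most 3 called genes per pathway list and among other TRIM and neighbouring genes by size of change, and the 5 genes most like the member of widest spread. Replicates were taken as separate mice because the paper gives 6 female mice per group, and the labels do not say what a shared stem means. The 21 alternatives were DESeq2 without shrinkage, 3 other scalings, no filter, at least 10 counts in every mouse, adjusted p alone, no mice with a repeated label stem, no mouse with a label of another number, and leaving out each of 12 mice. The mouse with a label of another number is βCat-GOF 5, so leaving it out is listed under both names.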

Additional observations from a re-analysis of the deposited data

Results flagged for a closer look

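In a group of 6 mice, a mouse was singled out when its gap to the nearest other mouse, divided by the range of the group, was above Dixon's critical value. Of 12 groups examined (6 genes in Ctrl and βCat-GOF), 4 had such a mouse. Chance picks out about 1 in 20 groups, but the genes were chosen by these values, so the number is a description and is not read against that share. All 4 were the same control. Ctrl 4 was the highest control for *Trim12a* (587 normalized counts, gap over range 0.77), for *Trim30d* (792, 0.83) and for *Trim5* (188, 0.72). It was the lowest control for *Trim12c* (862, 0.63). The 4 values are from 1 library and are not independent.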

How the results depend on the processing

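The results were recomputed under 21 alternatives. The fit without the mouse of another label number is the same fit as that without βCat-GOF 5 and is listed under both names. The number of cluster genes that passed the cut-offs was 2 with all mice, between 2 and 3 when 1 mouse was left out, and 3 by the adjusted p alone or without the 3 mice with a repeated label stem. *Trim30a* and *Trim34a* passed under all 21, *Trim12a* and *Trim12c* under none of those run, and *Trim12a* and *Trim30d* had no value at a minimum of 10 counts in every mouse. The number of other TRIM genes that passed was 1, and it was 0 with scaling by the total count, without the 3 mice with a repeated stem and without the mouse of another label number, 2 by the adjusted p alone, and between 0 and 1 without 1 mouse. Interferon and TRIM5 partner genes that passed numbered 17, with 11 without the 3 mice with a repeated stem and 10 to 21 without 1 mouse. Cell type markers that passed numbered 9, with 14 by DESeq2 and 5 to 12 without 1 mouse. The number of neighbouring genes that passed was 0 under every alternative (0 to 0 without 1 mouse). The SD of *Trim12a* in βCat-GOF, 3.56, lay between 3.05 and 3.89 without 1 mouse. The cause of these changes was not tested, except that fewer mice or genes entered some fits. Scalings and other settings moved the median log2 change over all genes tested to between -0.047 and 0.028. No direction of a cluster gene reversed. No paired analysis was possible because the labels give the groups no shared replicate numbers. With 6 mice per group and counts near 0, the fitted change of *Trim12a* and *Trim30d* has a large SE, and a cut-off that was not passed does not show that the groups were alike.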

Other observations

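Further genes on chromosome 7, chosen after their values were seen, varied between mice of 1 labelled genotype. *Gm5900*, a processed pseudogene 0.7 Mb from *Trim12a*, had 94.6, 169, 107, 185, 97.9 and 97.8 normalized counts in Ctrl 1 to Ctrl 6 and 4.64, 104, 5.37, 66.4, 203 and 9.19 in βCat-GOF 1 to βCat-GOF 6. Its low mice were βCat-GOF 1, βCat-GOF 3 and βCat-GOF 6, and the first of these was high for *Trim12a*. *Gm1966*, an unprocessed pseudogene 2.3 Mb away, had 33.7, 22.5, 45, 64.1, 45.8 and 40.5 normalized counts in the Ctrl mice and 20.1, 5.85, 5.37, 11.1, 3.94 and 4.59 in the βCat-GOF mice. Here βCat-GOF 1 and βCat-GOF 4 were the highest of their group and Ctrl 4 the highest control, as for *Trim12a*. *Trim21*, an antibody-binding TRIM gene 1.7 Mb away, had between 556 and 662 normalized counts in Ctrl and 580, 430, 462, 565, 402 and 457 in the βCat-GOF mice, with βCat-GOF 1 and βCat-GOF 4 again the highest. The adult globin gene *Hbb-bt* amounted to 13.3% to 15.9% of *Hbb-bs* in the Ctrl mice and to 17.4%, 11.6%, 12.1%, 15.2%, 9.9% and 10.8% in the βCat-GOF mice. The cause of these values was not tested.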
